A study of Rattus with 9 samples.

Results

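The genes described here are lineage and progenitor genes of the biliary tree: the transcription factors Sox9, Sox17, Pdx1, Onecut1, Foxa2 and Hhex, and Prom1, which encodes the membrane glycoprotein CD133 and is no transcription factor. They were chosen by name from a list of 8 symbols. Of these, 7 were analysed among the 23836 gene symbols of the files, and Sox4 was not analysed here. Their Ensembl identifiers are ENSRNOG00000002607 (Sox9), ENSRNOG00000027357 (Sox17), ENSRNOG00000046458 (Pdx1), ENSRNOG00000008095 (Onecut1), ENSRNOG00000013133 (Foxa2), ENSRNOG00000016595 (Hhex) and ENSRNOG00000003098 (Prom1).

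The epithelium of the bile duct arises from the ventral foregut endoderm and from liver progenitors. Foxa2 opens endodermal chromatin, Hhex is needed early for the liver and bile duct buds, and Onecut1 and Sox9 drive the formation of bile ducts. Sox17 separates the biliary primordium from the Pdx1-positive pancreatic primordium in the embryo and is a gene of arterial endothelium in the adult. Sox9, Pdx1 and Prom1 are often used to mark cells of the peribiliary glands, small glands in the wall of large ducts that hold biliary progenitors.

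Rat bile ducts were dissociated and their single cells measured by 10x Genomics 3′ RNA sequencing, in which each captured RNA molecule carries a unique molecular identifier (UMI). There were 9 samples in 3 arms. The sham arm had 3 samples, sham1, sham2 and sham3, with 1 library each. The ctrl arm was a liver transplant (LT) with ischemic injury, sampled once on day 1, once on day 3 and once on day 7, with 3 libraries per sample. The treat arm had the same transplant, and its splenic and gastroduodenal arteries were ligated to elevate arterial flow. It was sampled on the same days, with 3, 2 and 3 libraries. Both graft arms share the ischemic injury, so treat against ctrl is the comparison that bears on flow. The labels give no strain, sex or age. The study credits its single-cell data of rat bile ducts after LT to the authors' prior work. Its methods name Sprague-Dawley rats of both sexes, a few weeks old, for its animal work and do not say which rats gave these libraries. Whether libraries of the same sample stem from different rats is not stated. The libraries of a sample were therefore summed, the 3 days of a graft arm served as its samples, and p-values measure the spread between such samples, which in the graft arms includes the day.

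The 20 libraries held 14398295 to 109245177 UMIs, and 140113 cells were kept in 45 clusters. Of these, 33 clusters were named into 19 classes by marker genes. Pairs of libraries shared at most 59 barcodes. The day-3 ctrl sample rested mainly on 1 of its 3 libraries: in the other two, 437 and 337 cells passed the limit on hemoglobin UMIs, against 2916 and 4303 before it, while 7373 passed in the first. Biliary epithelial cell (BEC)-like cells were 4 clusters with 19853 cells. Of 10 epithelial markers (such as Krt7, Krt19 and Epcam), clusters 3, 11 and 18 carried 10 and cluster 20 carried 8. Levels are in CPM, the UMIs of a gene per 1000000 UMIs of all genes in the cells of that class and sample. They compare 1 gene between cells, not genes with each other. Intervals are exact Poisson intervals at 95% and cover counting error only.

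The members fell into 3 patterns over cell classes. Sox9, Pdx1, Onecut1, Foxa2 and Prom1 were epithelial genes, Sox17 was an endothelial gene, and Hhex was shared by epithelial, endothelial, B-like, NK-like and myeloid cells. BEC-like cells gave 23.4% of all UMIs but 90.1% of the UMIs of Onecut1, 84.8% of Pdx1, 82.8% of Foxa2, 72.1% of Prom1, 70.1% of Sox9 and 49.3% of Hhex. EC-like cells (endothelial) gave 95.4% of the UMIs of Sox17. BEC-like cells thus carried most UMIs of every member but Sox17 and Hhex, though such shares also follow the size of a class. Median levels of Sox9, Pdx1, Foxa2 and Prom1 were higher in another epithelial class, as given below. These levels over classes are a description with no test.

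**Figure D1:**
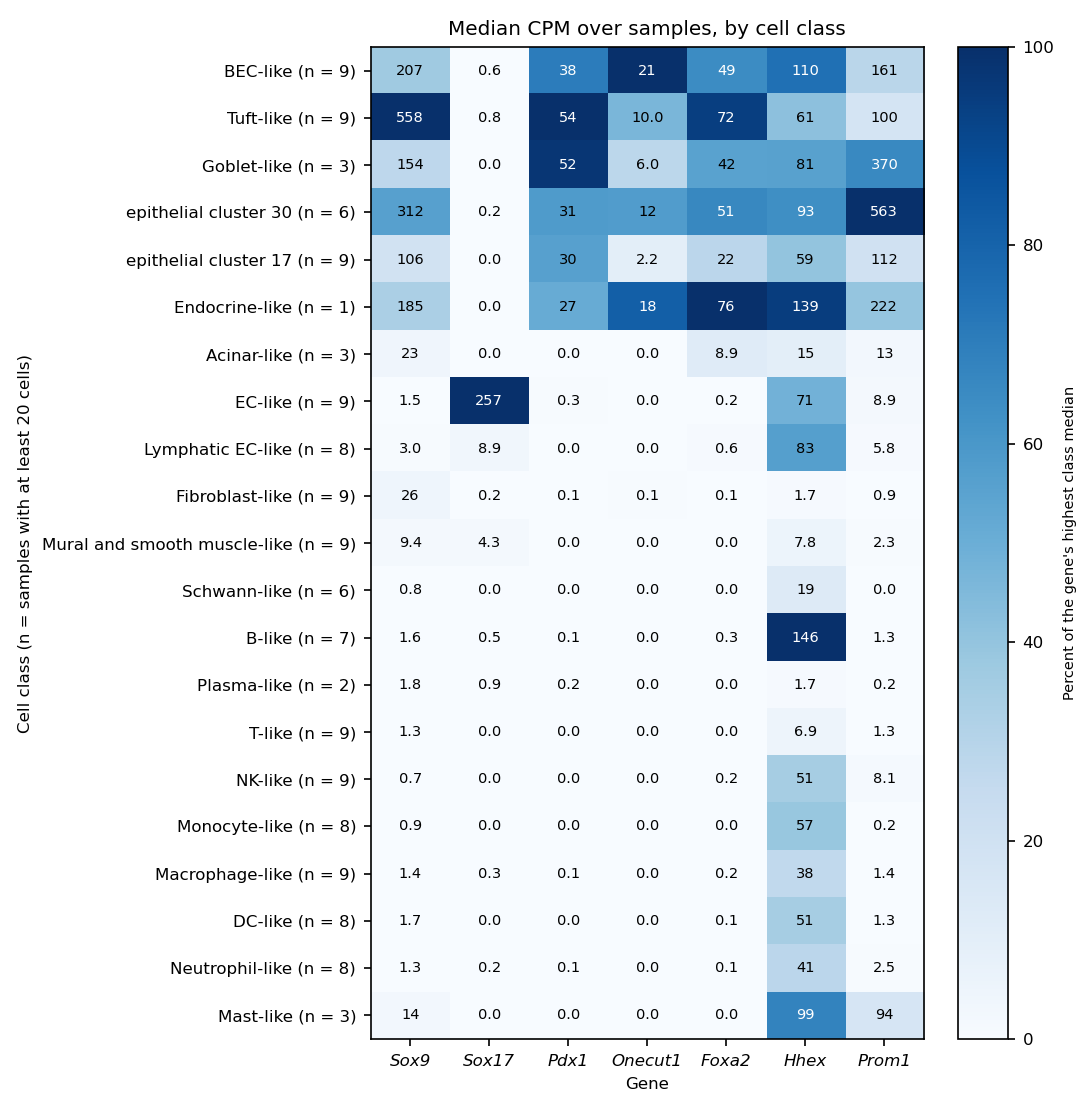
Median CPM of each gene (columns) over the samples with at least 20 cells, by cell class (rows, with the number of samples n); the colour gives the percent of the highest class median of that gene. Sox9 peaked in tuft-like cells at 558, Sox17 in EC-like cells at 257, Hhex in B-like cells at 146 and Prom1 in epithelial cluster 30 at 563.

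Sox9 is a high-mobility-group factor of ductal and progenitor epithelium. Its level was highest in tuft-like cells, chemosensory epithelial cells marked here by Dclk1, Trpm5, Pou2f3 and Avil. Tuft-like Sox9 was 558, 593 and 488 CPM in sham1, sham2 and sham3. It was 549.8, 564 and 294 CPM in ctrl at days 1, 3 and 7, and 517, 569.7 and 598 CPM in treat. Tuft-like cells were above the BEC-like cells of the same sample in 9 of 9 samples, by 1.36 to 5.23 times with a median of 2.75. Only the day-7 ctrl sample, with 94 tuft-like cells, fell below 488 CPM. Cells of at least 1000 UMIs were thinned to 1000 and the others left out, which kept 2946 of 3795 tuft-like and 18814 of 19853 BEC-like cells. Sox9 was then seen in 40.3% of tuft-like cells, 17.4% of BEC-like cells, 0.128% of T-like cells and 0.123% of neutrophil-like cells. Before thinning, the shares over all cells were 57.1%, 54.4%, 0.429% and 0.254%. BEC-like cells held 6575 to 15364 UMIs per cell over the samples and tuft-like cells 1409 to 3097, so the unthinned shares do not compare like with like. In tuft-like cells, edgeR called 0 of 6 members in each comparison of the arms, 0 had an unadjusted p under 0.05 and DESeq2 called 0. Among 8140 genes edgeR called 0.0737% in ctrl against sham, 0% in treat against ctrl and 0% in treat against sham, and 11.6%, 2.67% and 5.92% had an unadjusted p under 0.05, while DESeq2 called 0.99%, 0% and 0.0123%.

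Pdx1, a homeobox gene of pancreas and duodenum that marks peribiliary glands, had a median of 53.7 CPM in tuft-like cells (15.7 to 72.1), 52.3 CPM in goblet-like cells and 37.9 CPM in BEC-like cells. Tuft-like Pdx1 exceeded BEC-like Pdx1 in 7 of 9 samples. Foxa2, the forkhead pioneer factor of endoderm, had a median of 71.7 CPM in tuft-like cells (35.2 to 89.7) and 49.3 CPM in BEC-like cells, and the tuft-like value was the higher in 6 of 9 samples. For these 2 genes the ranges of the 2 classes overlapped, so the order of the classes is not settled. Onecut1, the cut-homeodomain factor of hepatoblasts and bile ducts also known as HNF6, ran the other way, with a BEC-like median of 21.4 CPM and a tuft-like median of 9.95 CPM. It was higher in tuft-like cells in 1 of 9 samples. Outside the epithelium the class medians of Pdx1, Onecut1 and Foxa2 were below 1 CPM.

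Prom1 was highest outside the named classes, in a cluster of 952 epithelial cells (cluster 30) led by the mucus genes Gkn3, Agr2 and Tff2. Its Prom1 level was 476, 675 and 401 CPM in ctrl at days 1, 3 and 7 and 675, 589 and 538 CPM in treat. The BEC-like cells of the same 6 samples ranged from 144 to 220.0 CPM, so the groups of values do not overlap. The sham samples had 11, 16 and 8 of these cells, under the minimum of 20 for a value. The cluster gave 1.92% of all UMIs and 20.3% of Prom1 UMIs. The gastric-type gland mucin Muc6, which marks peribiliary glands, was at 69.3 CPM there and at 0.669 CPM in BEC-like cells. The Sox9 median of the cluster over its 6 samples was 312 CPM, its Pdx1 median 31.3 CPM and its Onecut1 median 12.4 CPM. The BEC-like medians over 9 samples were 207, 37.9 and 21.4 CPM, so Pdx1 was not higher in the cluster. Its UMI counts were 3.35 times the median of its samples. Goblet-like cells, mucus-secreting cells with Clca1, Zg16 and Spink4, had Prom1 at 560.4 CPM in sham3, 228 CPM in ctrl day 1 and 370.4 CPM in treat day 1, the 3 samples with at least 20 of them. Tuft-like cells were below BEC-like cells for Prom1 in 9 of 9 samples, at 0.493 to 0.813 times. Among cells outside the epithelium, Prom1 was highest in mast-like cells (56.3, 94.2 and 168.5 CPM in 3 samples, from 8, 19 and 29 UMIs).

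Endocrine-like cells with Sst, Gast and Chgb had 1 sample over the minimum, sham3 with 33 cells. There Foxa2 was at 76.1 CPM, Hhex at 139 CPM, Sox9 at 185 CPM, Prom1 at 222 CPM and Pdx1 at 27.3 CPM. Fibroblast-like cells carried Sox9 at a low level in every sample, from 12.8 to 55.3 CPM with a median of 26.0, and because they were many they gave 8.53% of Sox9 UMIs. In barcodes with 100 UMIs or fewer, which hold free RNA, Sox9 was at 28.8 CPM over all samples (7.35 to 75.0 by sample). T-like and neutrophil-like cells from the same suspensions had Sox9 medians of 1.30 CPM each, below the fibroblast-like median. The highest sample of T-like cells was at 25.8 CPM and that of monocyte-like cells at 26.7 CPM, within the fibroblast-like range.

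Hhex is a homeobox gene needed for liver and biliary development that B lymphocytes and endothelial cells also use. Among its class medians were 146 CPM in B-like cells (94.4 to 197 over 7 samples), 109.5 CPM in BEC-like cells (65.9 to 129), 99.2 CPM in mast-like, 82.5 CPM in lymphatic EC-like, 70.6 CPM in EC-like, 57.0 CPM in monocyte-like, 51.3 CPM in NK-like and 41.3 CPM in neutrophil-like cells. Neighbours in that order overlap over samples. T-like cells were at 6.89 CPM and fibroblast-like cells at 1.70 CPM, both below the 40.7 CPM of free RNA, near which the neutrophil-like level lay. After thinning to 1000 UMIs, Hhex was seen in 10.4% of B-like, 9.88% of BEC-like, 7.01% of EC-like, 3.69% of neutrophil-like and 0.924% of T-like cells.

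Sox17 had a median of 257 CPM in EC-like cells, 8.92 CPM in lymphatic EC-like cells and 0.606 CPM in BEC-like cells. In BEC-like cells it rested on 152 UMIs in all, and after thinning it was seen in 0.0957% of BEC-like cells against 0.0376% of T-like cells and 22.1% of EC-like cells. Sox17 UMIs of BEC-like cells (0.258 to 1.56 CPM, with 0 in sham1, which allows up to 0.961 CPM) were below the 7.81 CPM of free RNA.

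Across the 19 classes, the levels of the epithelial members moved together. Over the class means, Pearson's r of log2(CPM + 1) was 0.97 between Onecut1 and Foxa2, 0.95 between Pdx1 and Foxa2 and 0.92 between Sox9 and Onecut1. Sox17 had r from -0.20 to 0.066 with the other members and Hhex had r from 0.066 to 0.57. Among 9557 genes, the one most like Foxa2 was the tight junction gene Cldn7 (r = 0.98), followed by RGD1305347, Onecut2, Cldn3 and Crb3. The nearest to Onecut1 was RGD1305347 (r = 0.99), then Fermt1, Lratd1, Noxo1 and Itgb6. The nearest to Sox9 was Kcnh2 (r = 0.94), then Ptprd, Arhgef19, Pkp1 and Cep170b, and the nearest to Pdx1 was Eps8l3 (r = 0.97), then Tmc5, Pkp3, Tuft1 and Krt78. Sox17 was most like the endothelial genes Cyyr1 (r = 0.95), Nos3, Ptprb, Sox18 and Rbp7. Among the genes most like Prom1 were Rab27b (r = 0.96), Cldn23, Igsf5 and Tmprss4, and Hhex had no close neighbour, with Gpd2 first at r = 0.79. The classes share libraries and differ in depth, and most of these correlations separate epithelial from other cells.

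In BEC-like cells as 1 class, Onecut1 and Foxa2 lay lower in every graft sample than in every sham sample, an order that 3 of the 4 clusters of the class did not show on their own, and Sox9 lay lower at days 1 and 3 of ctrl and at day 1 of treat. None of these differences passed the test across all genes. Tests were edgeR's quasi-likelihood test on the UMIs summed per sample with Benjamini-Hochberg adjustment over all genes tested in that class, and a gene was called at an adjusted p under 0.05. In ctrl against sham, 0 of 7 members were called, 4 had an unadjusted p under 0.05, and DESeq2 called 1, where 4.06% of 13112 genes were called by edgeR, 22.9% had an unadjusted p under 0.05 and DESeq2 called 10.9%. In treat against ctrl, 0 of 7 were called, 1 had an unadjusted p under 0.05 and DESeq2 called 0, where 0%, 7.63% and 0.769% of genes did so in that order. In treat against sham, 0 of 7 were called, 2 had an unadjusted p under 0.05 and DESeq2 called 0, where 0.145%, 13.9% and 3.16% of genes did so. The 4.06% depends on which samples enter: without sham2 the 533 genes called became 19, and without sham3 22. Other samples that lowered it when left out are given in the last section. A p above the threshold does not show that the values are alike.

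Log2 fold changes are on the TMM scale, which divides each sample by a factor that centres most genes. The plain CPM values sit lower in the grafts. Scaled by total UMIs alone, the median gene of BEC-like cells was at -0.25 in ctrl against sham and -0.17 in treat against sham, and at -0.0055 and 0.016 on the TMM scale. In ctrl against sham, 249 of 533 called genes were higher on the TMM scale, and 143 of 624 with total UMIs alone.

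Onecut1 in BEC-like cells was 36.8, 26.8 and 29.7 CPM in the sham samples. It was 8.69, 21.7 and 17.1 CPM in ctrl at days 1, 3 and 7 and 14.8, 11.5 and 21.4 CPM in treat. The sham mean was 31.1 ± 5.16 (SD, n = 3), the ctrl mean 15.8 ± 6.57 and the treat mean 15.9 ± 5.04, and sham and graft values did not overlap. The log2 fold change was -0.77 (SE 0.28, adjusted p = 0.140) in ctrl against sham and -0.77 (SE 0.27, adjusted p = 0.286) in treat against sham, by edgeR's quasi-likelihood test. Treat against ctrl was at -0.0054 (SE 0.27).

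Foxa2 in BEC-like cells was 67.6, 59.1 and 62.2 CPM in sham. It was 31.3, 39.7 and 49.5 CPM in ctrl and 41.1, 38.4 and 49.3 CPM in treat at days 1, 3 and 7. All 6 graft values lay below the lowest sham value. The log2 fold change was -0.42 (SE 0.14, adjusted p = 0.126) in ctrl and -0.36 (SE 0.14, adjusted p = 0.317) in treat against sham by edgeR. Of 14581 genes compared in this way in BEC-like cells, 13.8% had every sham sample above every graft sample in plain CPM and 7.46% on the TMM scale, and both genes separated on both scales. Library by library neither separation held: the third treat library of day 7 was at 68.7 CPM for Foxa2 and at 28.4 CPM for Onecut1. Treat against ctrl was at 0.061 for Foxa2.

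Sox9 in BEC-like cells was 193, 259.8 and 287 CPM in sham. It was 105, 124 and 216 CPM in ctrl at days 1, 3 and 7 and 108, 207 and 245 CPM in treat. The day-1 samples were the lowest of both graft arms, while the day-7 samples lay within the sham range. Its log2 fold change was -0.53 (SE 0.32, adjusted p = 0.361) in ctrl and -0.24 (SE 0.32, adjusted p = 0.754) in treat against sham by edgeR. Treat against ctrl was at 0.29 (SE 0.32). The libraries of 1 day spread widely, with 48.8, 166 and 108 CPM in the 3 libraries of ctrl day 1 and 192, 234 and 311 CPM in those of treat day 7.

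Pdx1 in BEC-like cells was 41.6, 32.7 and 28.5 CPM in sham, 37.9, 44.0 and 43.7 CPM in ctrl and 31.6, 29.1 and 39.9 CPM in treat. Sham and ctrl overlapped in plain CPM. On the TMM scale sham was at 34.7, 30.5 and 26.9 and ctrl at 45.6, 45.1 and 43.3, with no overlap, an order that 13% of genes showed. Treat (31.7 to 37.3) overlapped with sham and lay below ctrl on this scale, while treat and ctrl overlapped in plain CPM. The share of genes with treat below ctrl is not reported here. The log2 fold change of ctrl against sham was 0.55 (SE 0.14, adjusted p = 0.0643 by edgeR). DESeq2 called it at 0.57 (adjusted p = 0.00688), where 10.9% of genes were called. With doublets kept, edgeR called it at 0.58 (adjusted p = 0.0401), and the share of all genes called in that setting is not reported here. Treat against ctrl was at -0.37 (SE 0.14, unadjusted p = 0.0264, adjusted p = 0.597 by edgeR) and treat against sham at 0.18 (SE 0.14).

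Hhex in BEC-like cells was 85.5, 125 and 126 CPM in sham, 73.3, 72.5 and 114 CPM in ctrl and 65.9, 109.5 and 129 CPM in treat. The arms overlapped, and the adjusted p by edgeR was at least 0.761 in the 3 comparisons. Its lowest values, like those of Sox9, were at the early days.

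Prom1 in BEC-like cells was 146, 161 and 157 CPM in sham, 144, 220.0 and 181 CPM in ctrl and 155, 172 and 186 CPM in treat. In plain CPM the arms overlapped. On the TMM scale every sham sample (122 to 149.9) was below every graft sample (169.7 to 226), as for 5.63% of genes, while in plain CPM this held for 2.67% of genes and for no member. By edgeR, Prom1 was at 0.46 (SE 0.17, adjusted p = 0.140) in ctrl and 0.34 (SE 0.17, adjusted p = 0.390) in treat against sham, and at -0.12 in treat against ctrl, on the log2 scale. Sox17 was at 0 to 1.56 CPM in every BEC-like sample. Its log2 fold change was -0.45 in ctrl against sham (adjusted p = 0.751 by edgeR), and it is taken up again only among the signs that turned.

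**Figure D2:**
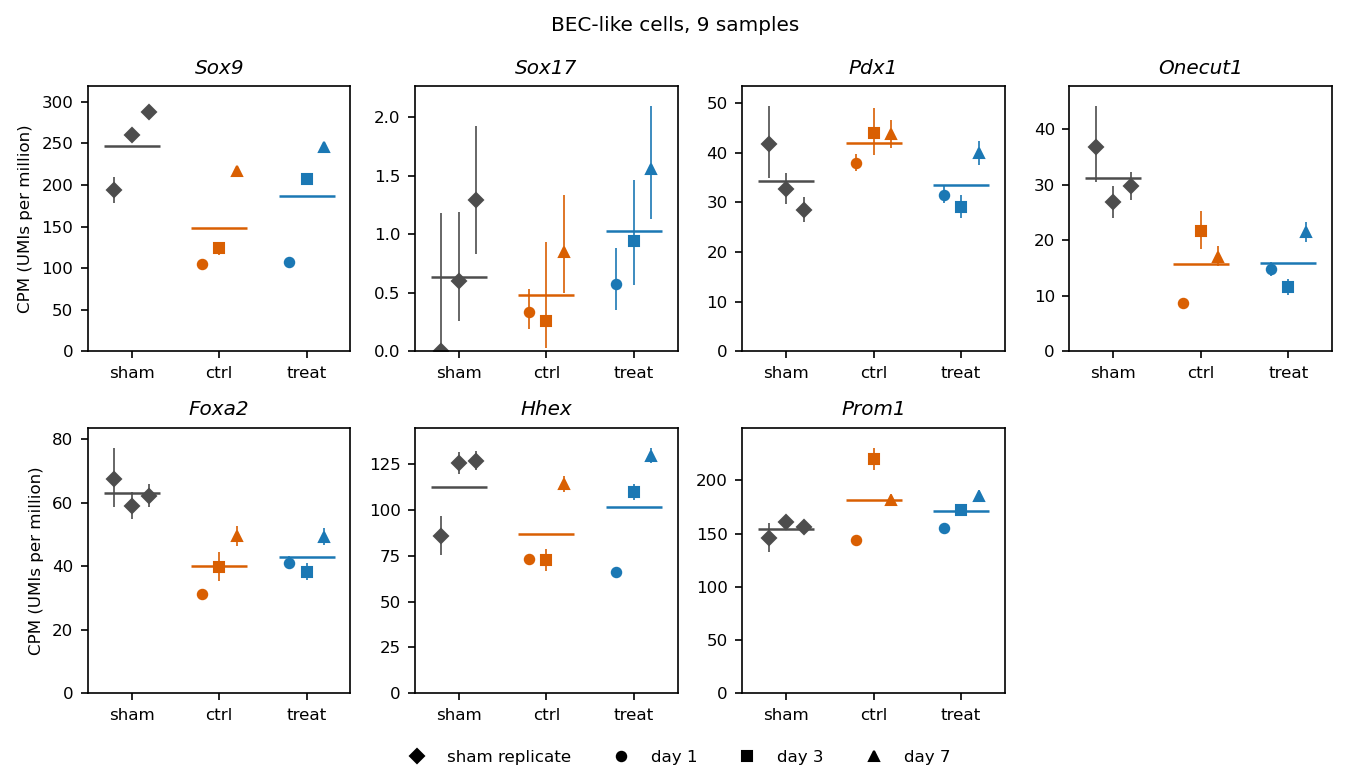
CPM of each gene in BEC-like cells by arm; points are the 9 samples (day marked by shape), bars exact Poisson 95% intervals and horizontal lines the mean of the 3 samples of an arm. All graft points of Onecut1 (at most 21.7) and Foxa2 (at most 49.5) lie below all sham points (at least 26.8 and 59.1), and the day-1 points of Sox9 are the lowest of their arms.

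Other genes moved in the same cells. UMIs per BEC-like cell were 7000 to 10156 in sham and highest at day 1, at 14089 in ctrl and 15364 in treat. The summed level of 9 neutrophil markers in BEC-like cells was 397 to 725 CPM in sham, 1464 to 2240 CPM in ctrl and 1912 to 2193 CPM in treat. Most of it was Lcn2, which injured epithelium also makes, while Cxcr2, Mmp9 and Mmp8 were under 1 CPM over all BEC-like cells. Csf3r was 0 in every sham sample and 0.594 to 2.84 CPM in the grafts, and S100a8 was 0.454 to 6.20 CPM in sham and 14.0 to 99.2 CPM in the grafts. The summed level of 10 fibroblast markers was 56.7 to 715 CPM in sham, 17.8 to 75.8 CPM in ctrl and 64.1 to 149 CPM in treat, with Pdgfra under 1 CPM over all BEC-like cells. The summed level of 9 acinar markers was 171 to 603 CPM in sham, 90.0 to 136 CPM in ctrl and 105 to 160 CPM in treat, and 1 of them, Prss1, was 8.65 to 127 CPM in sham and at most 3.35 CPM in the grafts. The part of these differences in the values of the members was not tested.

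The BEC-like class had a different make-up in each arm and day. Cluster 20, led by Scgb1c1, Akr1c15 and Ttr, was 31.4%, 62.4% and 69.2% of BEC-like cells in sham and 0.93% to 18.5% in the grafts. Cluster 3, led by Clca5, Sectm1b and Ubd, was 85.4% to 93.3% in ctrl day 7, treat day 3 and treat day 7. Cluster 11, led by Wfdc21, Lypd8 and Upk3bl1, was 57.4%, 26.2% and 21.1% in sham, 41.4%, 39.8% and 8.22% in ctrl and 33.1%, 5.60% and 2.72% in treat. Cluster 18, led by Reg3b, Reg3g and Gpx2, was 51.4% of ctrl day 1 and 41.3% of treat day 1 and at most 4.60% in sham. Cluster 18 had UMI counts 3.80 times the median of its samples. The genes that define the clusters also differed between arms, so these shares are a description. The levels of Sox9, Foxa2, Onecut1 and Prom1 are therefore given within clusters, and those of Hhex and Pdx1 in cluster 18 alone. This choice was made after the pooled values were seen.

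**Figure D3:**
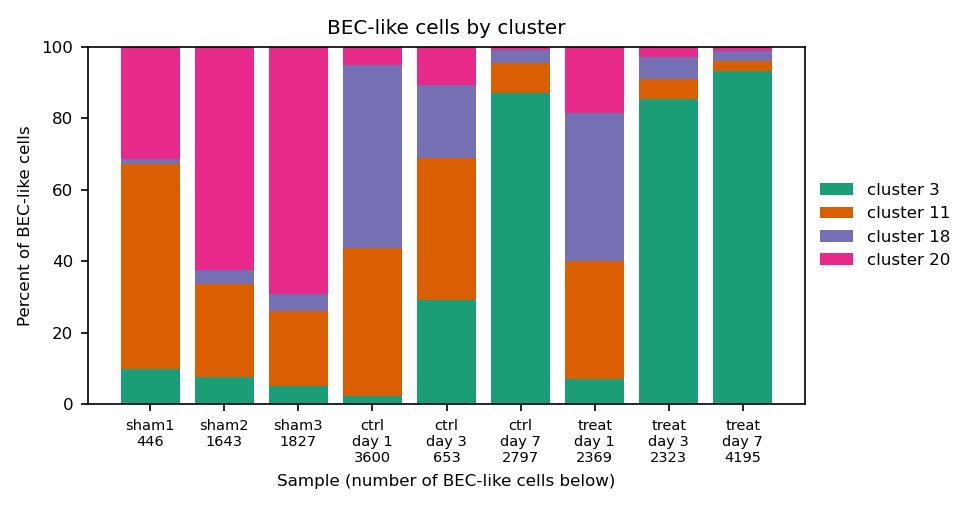
Percent of BEC-like cells in each of their 4 clusters (stacked bars, 9 samples), with the number of BEC-like cells under each bar. Cluster 20 holds 31.4% to 69.2% of sham cells and at most 18.5% of graft cells.

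In 3 of the 4 clusters every graft value of Sox9 lay below every sham value. In cluster 20 Sox9 was 292, 312 and 329 CPM in sham, 187, 227 and 227 CPM in ctrl and 194, 209 and 225 CPM in treat. In cluster 3 it was 370.2, 271 and 335 CPM in sham, 185, 205 and 244 CPM in ctrl and 165, 221 and 259 CPM in treat. In cluster 18, where sham1 had 6 cells and gave no value, it was 259 and 302 CPM in sham, 122, 85.4 and 88.8 CPM in ctrl and at most 167 CPM in treat. The order of these 3 clusters held also at day 7, where the pooled class had overlapped with sham. That order held for 7.16% of genes in cluster 20, 10.7% in cluster 3 and 27.1% in cluster 18. In cluster 11, the lowest in Sox9, sham1 at 60.6 CPM lay among the grafts (44.4 to 74.5 CPM) while sham2 and sham3 were at 135 and 161 CPM, and no member had every sham value above every graft value there, against 11.4% of genes. The means of Sox9 in cluster 11 were 119 CPM in sham, 54.2 CPM in ctrl and 65.1 CPM in treat. The unnamed epithelial cluster 17, with 3537 cells, did not show the order, on few and shallow cells. The sham samples had 47, 47 and 25 of them, and the UMI counts of the cluster were 0.340 times the median of its samples. Its Sox9 was 105, 106 and 43.3 CPM in sham, 78.1, 138 and 112 CPM in ctrl and 57.5, 111 and 146 CPM in treat, so the arms overlapped. The log2 fold change there was 0.079 (SE 0.51, adjusted p = 0.984) in ctrl and 0.13 (SE 0.48, adjusted p = 0.989) in treat against sham, by edgeR.

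Foxa2 and Onecut1, separated in the pooled class, did not separate in clusters 3, 11 and 20. Foxa2 in cluster 20 was 65.6, 61.4 and 65.7 CPM in sham, 45.8, 43.6 and 79.4 CPM in ctrl and 41.1, 49.3 and 40.4 CPM in treat. The value of 79.4 CPM in ctrl day 7 came from 26 cells, and all other graft values lay below every sham value. In cluster 3 its sham values (57.7 to 77.5 CPM) overlapped with ctrl (52.6 to 62.2 CPM), and in cluster 11 its lowest sham value was 50.2 CPM against up to 53.1 CPM in treat. Onecut1 was 24.0 to 73.2 CPM in sham and up to 29.3 CPM in the grafts in cluster 3, 20.9 to 33.0 CPM and up to 32.8 CPM in cluster 20, and 21.5 to 47.9 CPM and up to 28.4 CPM in cluster 11. The log2 fold change of Foxa2 in ctrl against sham, -0.42 in the pooled class, was -0.12 in cluster 3, -0.17 in cluster 20 and -0.55 in cluster 11. That of Onecut1, -0.77 in the pooled class, was -0.89, -0.78 and -0.60. In treat against sham the order differed: Foxa2 fell further in clusters 3 and 20 than in the pooled class (-0.36). Both genes separated in cluster 18, where Foxa2 was 63.4 to 76.5 CPM in sham and 26.1 to 36.1 CPM in the grafts, and Onecut1 23.5 to 25.5 CPM and 3.53 to 9.92 CPM.

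The tests within clusters called members in cluster 18 alone. In ctrl against sham there, edgeR called 3 of 6 members, where 13.7% of genes were called: Sox9 at -1.18 (SE 0.26, adjusted p = 0.0173), Foxa2 at -0.91 (SE 0.18, adjusted p = 0.0126) and Onecut1 at -1.47 (SE 0.37, adjusted p = 0.0298). In treat against sham, Foxa2 fell (-0.85, SE 0.18, adjusted p = 0.0455), while Onecut1 at -1.65 (adjusted p = 0.0500258) and Sox9 at -0.76 (adjusted p = 0.126) were not called, so 1 of 6 members was called where 2.52% of genes were. These calls rest on 2 sham samples with 62 and 84 cells of cluster 18. In clusters 3, 11 and 20 edgeR called 0 members in either graft arm against sham, where 1.15% of pooled gene tests were called in ctrl and 0.0574% in treat. DESeq2 was not run by cluster. At an unadjusted p under 0.05 there were 5 member tests in ctrl (Foxa2, Prom1 and Sox9 in cluster 11, Prom1 and Sox9 in cluster 20), beside 18.5% of gene tests, and 2 in treat (Prom1 in cluster 11, Sox9 in cluster 20), beside 12.3%. In treat against ctrl, edgeR called 0 members in the 4 clusters, none had an unadjusted p under 0.05, and 0.0171% of pooled gene tests were called and 5.49% had such a p.

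For Sox9 the log2 fold change of ctrl against sham was -0.43 in cluster 20 (adjusted p = 0.254), -0.49 in cluster 3 (adjusted p = 0.275) and -0.91 in cluster 11 (adjusted p = 0.199), by edgeR. Treat against sham was at -0.48, -0.43 and -0.64 in the same order. With cluster 20 left out and the other clusters pooled, the direction turned, to 0.034 in ctrl and 0.32 in treat. Of the clusters left, cluster 11, the lowest in Sox9, held the most sham cells, and its part in this turn was not tested. Prom1 went the other way from Sox9 in clusters 11 and 20, where every sham value was below every graft value, as for 299 of 11847 and 175 of 12760 genes. In cluster 11 it was 97.3, 139 and 139 CPM in sham, 164, 252 and 244 CPM in ctrl and 163, 171 and 209 CPM in treat, with a log2 fold change of 1.07 in ctrl (SE 0.28, adjusted p = 0.0748 by edgeR). In cluster 18 the sham values of Prom1 (161 and 169 CPM) were above those of the grafts (104 to 134 CPM), as for 27.1% of genes. Hhex lay the same way there, at 126 and 134 CPM in sham and 61.9 to 100.3 CPM in the grafts. Pdx1 there was 21.2 and 30.8 CPM in sham and 37.8, 33.1 and 37.4 CPM in ctrl. In treat Pdx1 was 28.1, 24.96 and 37.6 CPM, which overlapped with sham. In ctrl against sham Pdx1 had an unadjusted p under 0.05 by edgeR, as did 30.4% of genes. Neither Hhex nor Pdx1 was called.

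**Figure D4:**
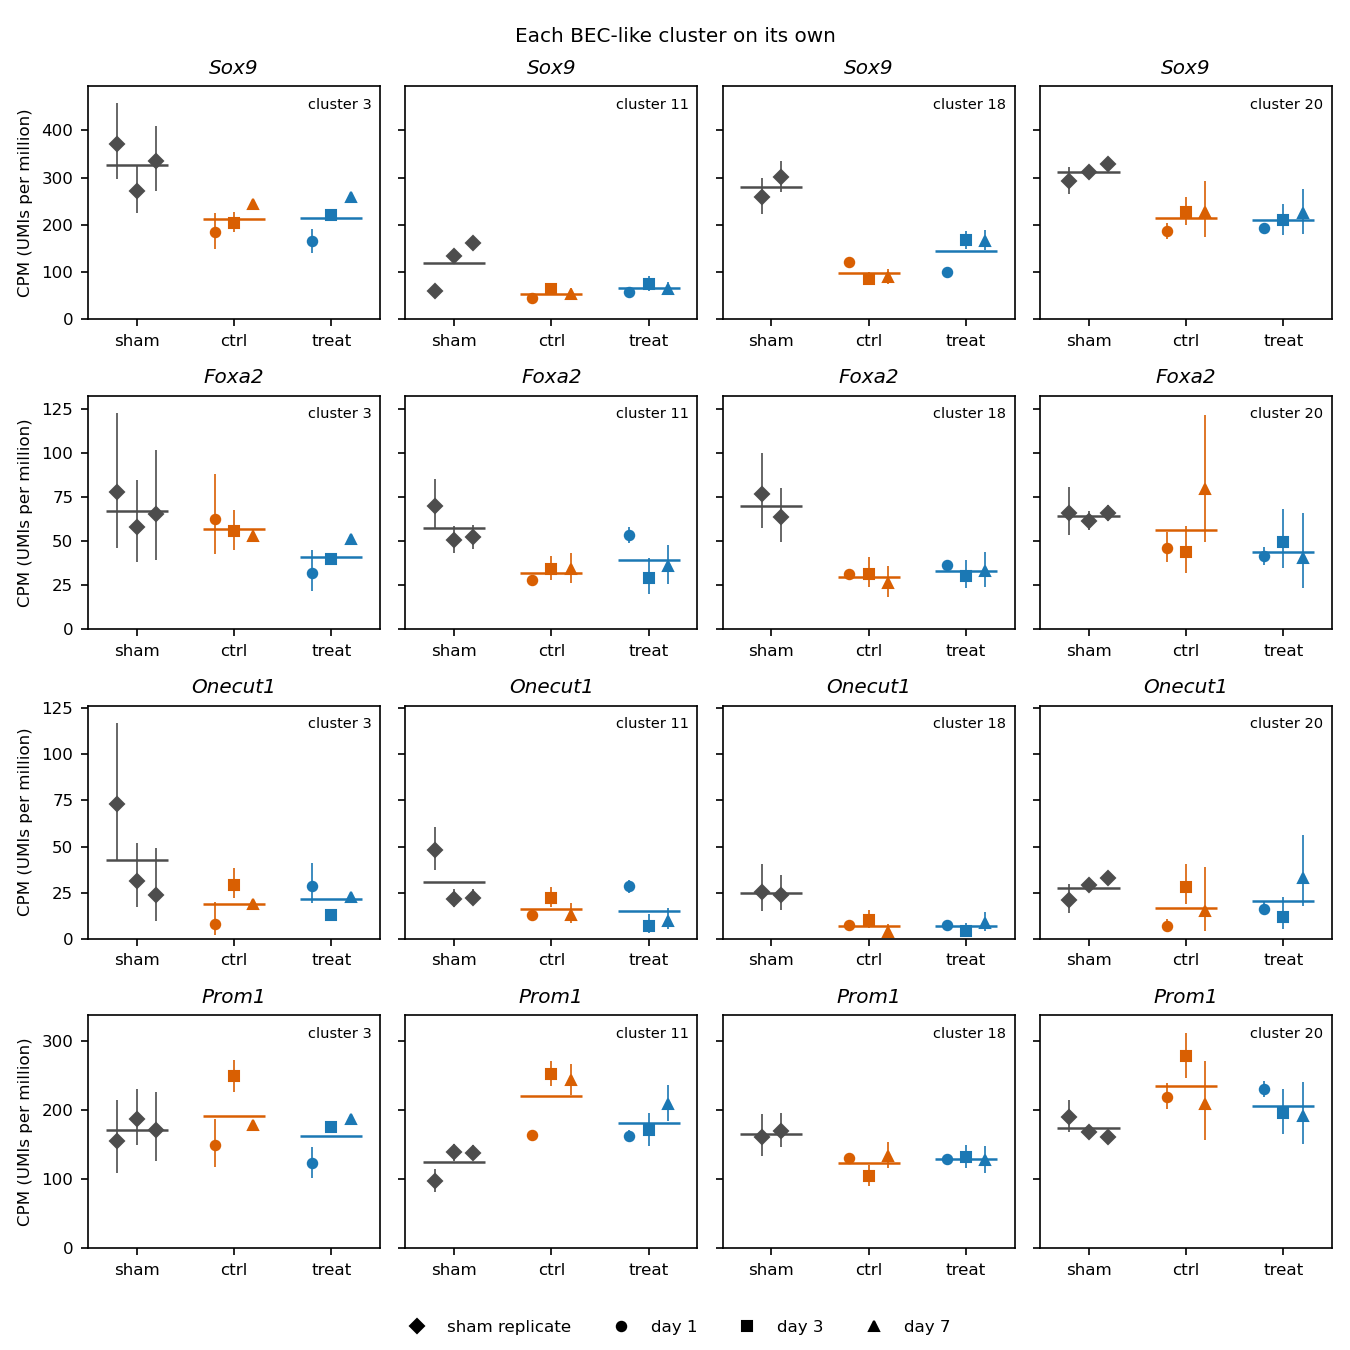
CPM of Sox9, Foxa2, Onecut1 and Prom1 (rows, with a common axis per row) in each BEC-like cluster (columns) by arm; points are samples, bars exact Poisson 95% intervals and lines the mean of an arm. Sox9 lies lower in every graft sample than in every sham sample in clusters 3, 18 and 20, and Prom1 lies higher in clusters 11 and 20.

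Other genes of the same pathways were read from 4 lists in BEC-like cells. Of 14 tested hepatobiliary and foregut transcription factors (such as Hnf4a and Onecut2), edgeR called 0 in the 3 comparisons, with 6, 1 and 2 at an unadjusted p under 0.05 in ctrl against sham, treat against ctrl and treat against sham, and 2, 0 and 0 called by DESeq2. Over all genes, 4.06%, 0% and 0.145% were called by edgeR, 22.9%, 7.63% and 13.9% had an unadjusted p under 0.05, and 10.9%, 0.769% and 3.16% were called by DESeq2, which is also the background of the next lists. Their median log2 fold changes were -0.27, 0.048 and -0.22, against -0.0055, 0.047 and 0.016 over all genes tested. Of 8 tested other Sox genes, 1 was called in ctrl against sham and 0 in the other two comparisons (3, 0 and 1 at an unadjusted p under 0.05, 2, 0 and 1 by DESeq2), with medians of -0.62, 0.62 and -0.31. The called gene was Sox5, a partner of Sox9 in cartilage. It was 40.4, 26.2 and 24.6 CPM in sham, 7.77, 11.1 and 14.8 CPM in ctrl and 10.1, 9.95 and 17.5 CPM in treat. Every sham value was above every graft value, as for 13.8% of genes in plain CPM. Sox5 fell by 1.19 on the log2 scale in ctrl against sham (SE 0.25, adjusted p = 0.0355 by edgeR).

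Of 4 tested pancreatic and endocrine transcription factors, 0 were called by edgeR in the 3 comparisons, with 1, 1 and 0 at an unadjusted p under 0.05, 1, 0 and 0 called by DESeq2, and medians of -0.23, 0.83 and 0.41. Of 11 tested peribiliary gland and progenitor genes, 1 was called in ctrl against sham and 0 in the other two comparisons (4, 2 and 2 at an unadjusted p under 0.05, 2, 0 and 1 by DESeq2), with medians of -0.20, 0.13 and -0.073. The called gene was Olfm4, an intestinal stem cell gene that neutrophils also make. It was 1.92, 1.14 and 1.19 CPM in sham, 7.00, 9.28 and 21.4 CPM in ctrl and 5.25, 7.77 and 10.3 CPM in treat. Olfm4 rose by 3.46 on the log2 scale in ctrl against sham (SE 0.44, adjusted p = 0.0107 by edgeR). It was at 61.2 CPM in neutrophil-like cells, whose markers moved with the arm as given above. The part of neutrophil RNA in the Olfm4 values of BEC-like cells was not tested.

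Outside BEC-like cells, 11 classes had enough samples for a test. Of 81 tests of a member in a class and comparison, edgeR called 1, 7 had an unadjusted p under 0.05 and DESeq2 called 1. By comparison, 1 of 27 was called in ctrl against sham, where 0.661% of pooled gene tests were called, 3 had an unadjusted p under 0.05, as did 16.6% of gene tests, and DESeq2 called 1, beside 4.06% of gene tests. None of 27 was called in treat against ctrl (1 at an unadjusted p under 0.05, 0 by DESeq2; of gene tests, 3.21% had such a p, edgeR called 0.00109% and DESeq2 0.0853%) or in treat against sham (3 at an unadjusted p under 0.05, 0 by DESeq2; of gene tests, 11.5%, 0.0656% and 1.72%).

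The called gene was Prom1 in EC-like cells, where 3 members were tested. Its UMIs were 31, 42 and 35 in sham, 22, 9 and 34 in ctrl and 68, 49 and 87 in treat. As levels these were 14.6 to 23.0 CPM in sham, 5.50, 4.41 and 4.55 CPM in ctrl and 8.86, 7.57 and 9.53 CPM in treat. By sample the 3 arms did not overlap, with ctrl lowest and treat between ctrl and sham. By library, sham (14.6 to 23.0 CPM) stayed above the grafts, while ctrl (1.71 to 7.33 CPM in 7 libraries) and treat (6.32 to 13.6 CPM in 8 libraries) overlapped. Every sham value was above every graft value for 7.04% of 12331 genes, and every treat value above every ctrl value for 5.51% of 13526. Prom1 fell by 1.90 on the log2 scale in ctrl against sham (SE 0.26, adjusted p = 0.0203 by edgeR), where 1% of genes were called in EC-like cells. The call was lost without sham2 (adjusted p = 0.110) and without ctrl day 3 (adjusted p = 0.104), while the fold change stayed between -2.06 and -1.71 in 16 alternatives. Treat against sham was at -1.03 (SE 0.24, adjusted p = 0.239), where 0.0389% of genes were called, and treat against ctrl at 0.86 (SE 0.26, adjusted p = 0.874), both by edgeR and both not called.

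Epithelial genes moved in part with it. In the same EC-like cells Epcam was 23.0, 18.6 and 28.4 CPM in sham, 23.3, 3.43 and 3.88 CPM in ctrl and 7.68, 8.34 and 10.4 CPM in treat. Krt8 was 63.7, 50.9 and 86.2 CPM in sham, 73.5, 7.84 and 12.0 CPM in ctrl and 28.5, 22.2 and 29.2 CPM in treat. Krt18 was 70.9 to 102 CPM in sham, 68.3, 7.35 and 9.77 CPM in ctrl and 30.3 to 34.0 CPM in treat. Krt18, like Prom1, was lower in every graft sample than in every sham sample, and Epcam and Krt8 were so in every graft sample but ctrl day 1. In ctrl day 1 Epcam and Krt8 lay within the sham range and Krt18 just below it, while Prom1 was at 5.50 CPM. With the free RNA profile subtracted, the log2 fold change of Prom1 was -1.94 (adjusted p = 0.0196 by edgeR). Prom1 in EC-like cells was below the free RNA level of its own sample in 9 of 9 samples (free RNA at 21.0 to 80.5 CPM). Any other part of epithelial RNA in these Prom1 values was not tested.

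Sox17, the member that EC-like cells carry most, was 417, 257 and 264 CPM in sham, 168, 179 and 309 CPM in ctrl and 165, 221 and 280.3 CPM in treat. Days 1 and 3 were below the sham range and day 7 within it. Sox17 was at a log2 fold change of -0.44 (SE 0.29, adjusted p = 0.443) in ctrl and -0.37 (SE 0.29, adjusted p = 0.737) in treat against sham by edgeR. Hhex in EC-like cells was 66.9 to 80.4 CPM in sham, 69.0 to 86.6 CPM in ctrl and 45.8 to 80.0 CPM in treat, and the arms overlapped.

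**Figure D5:**
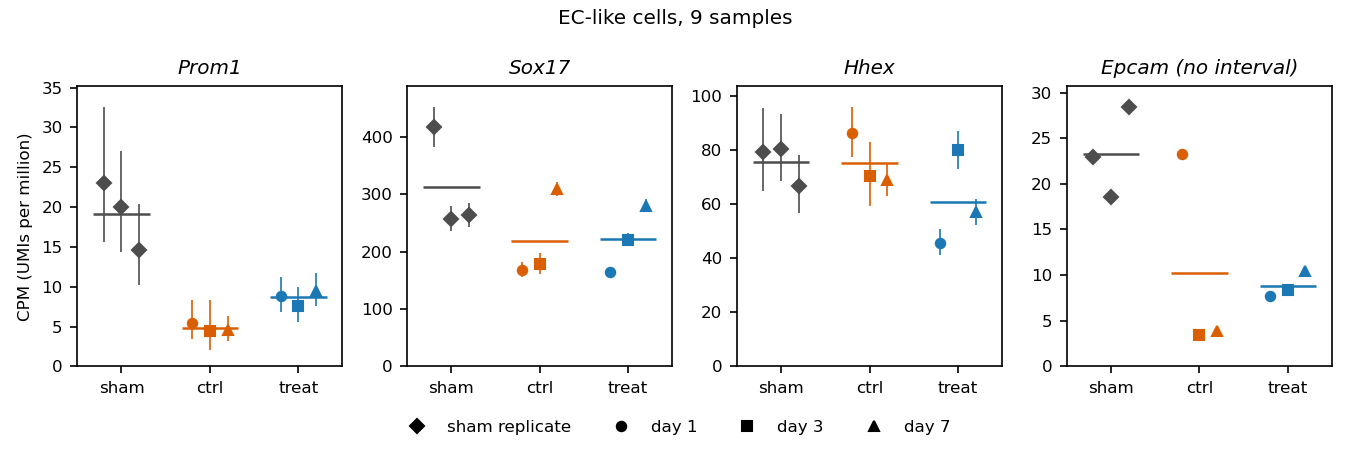
CPM of Prom1, Sox17, Hhex and the epithelial gene Epcam in EC-like cells by arm; points are the 9 samples, bars exact Poisson 95% intervals (none drawn for Epcam) and lines the mean of an arm. Prom1 is 14.6 to 23.0 in sham, at most 5.50 in ctrl and 7.57 to 9.53 in treat, while Epcam in ctrl day 1 (23.3) lies at the sham level.

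Summed over all kept cells, fewer cells of a type and less RNA per cell cannot be told apart. Sox9 was 154, 92.4 and 109.8 CPM in sham, 73.4, 28.0 and 37.4 CPM in ctrl and 34.6, 68.4 and 67.7 CPM in treat. Every graft value lay below every sham value, as for 21.2% of 17240 genes. BEC-like cells were 16.3% to 19.4% of kept cells in sham and 8.58% to 28.0% in the grafts. Sox9 was at a log2 fold change of -0.98 (SE 0.40, adjusted p = 0.144) in ctrl and -0.76 (SE 0.40, adjusted p = 0.279) in treat against sham, and that of Onecut1 -1.04 (SE 0.32, adjusted p = 0.0778) and -1.17 (SE 0.33, adjusted p = 0.0997), by edgeR. No member was called by edgeR over all cells in ctrl against sham (2 at an unadjusted p under 0.05, 1 by DESeq2, where edgeR called 9% of genes, 30.1% had such a p and DESeq2 called 22.6%), in treat against ctrl (0 and 0, where the shares were 0%, 3.34% and 0.0626% of genes) or in treat against sham (1 and 1, where they were 0%, 23.6% and 14.8%).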

How the data were processed

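The values are raw UMI counts, which the authors deposited as 1 whole-number matrix per library, empty barcodes included. The submitters' processing notes name Cell Ranger 5.0.1 and Seurat 3.2.0, the matrix headers name Cell Ranger 4, and the genome build was not given in the sources used here, so no coordinates or sequences are printed. 1 library of treat day 3 was not analysed here. Symbols that several of the 23999 features share were added up.

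Cells (150379) were barcodes with a gene number above 400 and below 6000, a mitochondrial share below 25% and a hemoglobin share below 3%, limits that the study's methods state for its human cells and that were applied to the rat cells here, and the 10266 cells above the 92.5th percentile (the same source) of a simulated-doublet score per library were removed. Cells were clustered by Leiden (leidenalg 0.10.2) at resolution 0.9 on 30 principal components of 2000 variable genes. A gene had to be seen in 20 cells to count as variable, a minimum lowered after the first look at the clusters. A cluster was named from at least 3 detected markers (in over 10% of its cells and 2 times higher than elsewhere). Clusters 17 and 30 stayed unnamed under a further rule on the share of specialised epithelial markers, set after the clusters had been seen. The members were left in the clustering.

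UMIs were summed per sample and class (at least 20 cells) and fitted with edgeR 4.0.16 (TMM, filterByExpr, glmQLFit with 1 mean per arm over the 9 samples, Benjamini-Hochberg over all genes of a class and comparison). DESeq2 1.42.0 was an alternative. The fit was tested on simulated data. The 11 other classes, each cluster alone, the fits without day 1, the counts of samples that do not overlap, and the minimum of 1000 expected UMIs for the free RNA estimate were set after the data were seen. Named genes were all members, their 5 nearest genes over classes (mean of at least 5 CPM), and list genes that were called; 1 of the nearest genes is not reported here. The members and the gene lists were chosen with earlier results of these data known.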

Additional observations from a re-analysis of the deposited data

Results flagged for a closer look

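Prom1 had fold changes of opposite sign in 2 cell classes under the same comparison. In tuft-like cells the log2 fold change of ctrl against sham was 0.42 (means of 113 and 86.7 CPM), with all 3 ctrl samples (106 to 117 CPM) above all 3 sham samples (75.3 to 99.9 CPM), as for 5.46% of 11565 genes. The treat samples, at 87.9, 129.8 and 91.4 CPM, overlapped with sham. In the same tuft-like cells the neutrophil gene S100a9 was 217, 1819 and 23.5 CPM in ctrl and 0 to 176 CPM in sham, and the acinar gene Prss1 was 14.4, 603 and 902 CPM in sham and at most 4.18 CPM in ctrl; their part in the Prom1 values was not tested. In EC-like cells it was -1.90 (means of 4.82 and 19.2 CPM), with all 3 ctrl samples below all 3 sham samples, as for 13.6% of 12543 genes. The tuft-like change was not called (adjusted p = 0.482 by edgeR's quasi-likelihood test), and the difference between the 2 classes was not tested.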

How the results depend on the processing

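Over 26 or 27 alternatives per comparison, BEC-like calls of members stayed at 0 with these exceptions: in ctrl against sham, DESeq2 gave 1, doublets kept gave 1 and cluster 18 alone gave 3; in treat against sham, cluster 18 alone gave 1. Leaving out 1 sample gave 0 calls in each comparison. In the other classes the 1 call ranged from 0 (without sham2 or ctrl day 3) to 1 on leaving out a sample and was 2 with doublets kept. Over all cells the 0 calls became 1 with library size alone, 2 with DESeq2, and 0 to 2 on leaving out a sample (2 without ctrl day 1). The shares of all genes called with doublets kept, and over all cells with library size alone or a sample left out, are not reported here. These counts of members are therefore a description. With doublets kept, 4 of 7 members kept their highest class, so the highest class of a member depends on this step. Which members changed is not reported here. Free RNA subtraction over all cells was not run, since it needs other cell types as reference. Over all genes of BEC-like cells in ctrl against sham, 533 calls became 1432 with DESeq2, 32 without cluster 20, and 19 without sham2, 22 without sham3, 124 without ctrl day 3, 198 without ctrl day 1 and 259 without treat day 3. In treat against sham, 19 became 414 with DESeq2, 170 without day 1 and 0 without sham2, sham3 or any 1 of the 3 treat days; in treat against ctrl, 0 became 89 with DESeq2 and 26 without ctrl day 7.

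Signs that turned were those of log2 fold changes below the threshold, and the cause was not tested. In ctrl against sham, without cluster 20, Sox9 was at 0.034, Sox17 at 0.58 and Hhex at 0.081; Sox17 was at 0.12 with cells gated by markers and no hemoglobin limit and from -1.02 to 0.44 on leaving out a sample, and Prom1 at -0.11 in cluster 18. In treat against ctrl, Onecut1 (main value -0.0054) was at 0.028 with library size alone, 0.0090 with no filter, 0.29 with each library as a sample, 0.067 gated with no hemoglobin limit, 0.12 at resolution 2, 0.030 with day as a block, 0.012 and 0.23 in clusters 3 and 20, and -0.27 to 0.25 on leaving out a sample. Foxa2 was at -0.038 without day 1, -0.39 and -0.28 in clusters 3 and 20, and -0.037 to 0.17 on leaving out a sample. Hhex was at -0.074 and -0.016 in clusters 3 and 20, Sox9 at -0.053 in cluster 20, and Prom1 at 0.15 gated by markers, 0.26 gated with no hemoglobin limit and -0.21 to 0.0046 on leaving out a sample. In treat against sham, Sox9 was at 0.32 without cluster 20, 0.015 without day 1 and -0.43 to 0.016 on leaving out a sample; Pdx1 was at -0.022 with library size alone and -0.089 without cluster 20. Hhex was at -0.15 with library size alone, -0.024 with each library as a sample, -0.15, -0.20, -0.43 and -0.21 in clusters 3, 11, 18 and 20, and -0.18 to 0.23 on leaving out a sample. Prom1 was at -0.15 in cluster 18.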
